A study of Homo sapiens with 2 samples.

Results

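The 10 genes described here are targets of the coactivators YAP and TAZ, and were followed after knockdown of FZD2, a frizzled receptor for Wnt ligands, in the human liver cancer cell line SNU449. The members were the listed genes CCN1, CCN2, ANKRD1, MYOF, AMOTL2, CRIM1, CCDC80, F3, NT5E and PTPN14, matched by gene identifier, and all 10 were found in both libraries among 19316 genes listed in either. The first library came from cells 7 days after lentiviral delivery of an FZD2 shRNA, labelled FZD2 deficiency, and the second from cells 7 days after a control shRNA, labelled negative control. Both groups were the same established cell line, both carried a lentiviral shRNA, and the number and sequence of the hairpins were not given in the sources used here. With 1 library per group, no value has a replicate error and no difference between the conditions was tested. Levels are FPKM, read fragments scaled to gene length and library size, and differences are log2((FPKM + 1)/(FPKM + 1)), FZD2 shRNA over control. Intervals are 95% intervals of the read counts, which cover counting error only.

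YAP (gene YAP1) and TAZ (gene WWTR1) are transcriptional coactivators that enter the nucleus when the Hippo kinases do not phosphorylate them, and there bind DNA through the TEAD factors. Their targets include secreted matrix proteins such as the CCN family, membrane proteins, and negative regulators of YAP itself, which form a feedback. In liver, the pathway is known for the control of organ size and for its part in liver cancer, and Wnt signals through frizzled receptors have been linked to YAP and TAZ as well.

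The promoters of target genes are shown because TEAD factors bind the motif GGAATG, which reads CATTCC on the other strand. RefSeq windows of the 250 bases before the gene start (GRCh38.p14) were matched for 8 of the 10 members, with a pair of windows for AMOTL2. No window was matched for CCN1 or CRIM1, so these were not searched. GGAATG was found on either strand in 4 of the 9 windows, of 4 different members, against 11.9% of all 35116 windows of this length. CCN2 held it at 3 places, at 169, 104 and 95 bases before the start, and 0.0826% of all windows held 3 or more. ANKRD1 held it at 2 places (220 and 128 bases before the start, against 0.94% of windows with 2 or more), and PTPN14 held it once. AMOTL2 held it once in 1 of its 2 windows, the one shown here, and the other window did not hold it. The windows of MYOF and CCDC80, the members that differed most between the libraries, are shown beside them and did not hold these letters. Each is written 5′ to 3′ on the gene's strand, with the motif in capitals: CCN2 (chr6:131951373-131951622, minus strand), ANKRD1 (chr10:90921088-90921337, minus), AMOTL2 (chr3:134374448-134374697, minus), PTPN14 (chr1:214551603-214551852, minus), MYOF (chr10:93482335-93482584, minus) and CCDC80 (chr3:112641144-112641393, minus).
CCN2: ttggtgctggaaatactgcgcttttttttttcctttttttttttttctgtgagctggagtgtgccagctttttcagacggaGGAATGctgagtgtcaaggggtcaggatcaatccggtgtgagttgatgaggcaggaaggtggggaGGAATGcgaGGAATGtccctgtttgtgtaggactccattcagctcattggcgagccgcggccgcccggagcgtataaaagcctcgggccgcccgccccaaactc
ANKRD1: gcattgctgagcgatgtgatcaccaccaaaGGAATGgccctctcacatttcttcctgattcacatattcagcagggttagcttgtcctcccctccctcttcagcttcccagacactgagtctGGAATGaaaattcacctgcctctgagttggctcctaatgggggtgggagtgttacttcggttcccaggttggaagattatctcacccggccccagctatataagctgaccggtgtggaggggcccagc
AMOTL2: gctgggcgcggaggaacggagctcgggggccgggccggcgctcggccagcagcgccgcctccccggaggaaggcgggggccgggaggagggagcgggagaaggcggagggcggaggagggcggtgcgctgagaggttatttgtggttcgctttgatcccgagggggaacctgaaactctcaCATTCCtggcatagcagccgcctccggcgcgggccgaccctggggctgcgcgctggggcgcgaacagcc
PTPN14: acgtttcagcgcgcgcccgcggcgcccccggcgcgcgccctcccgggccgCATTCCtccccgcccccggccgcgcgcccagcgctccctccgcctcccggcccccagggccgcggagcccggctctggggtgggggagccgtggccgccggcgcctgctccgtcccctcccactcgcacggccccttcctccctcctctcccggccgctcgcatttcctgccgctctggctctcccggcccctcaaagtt
MYOF: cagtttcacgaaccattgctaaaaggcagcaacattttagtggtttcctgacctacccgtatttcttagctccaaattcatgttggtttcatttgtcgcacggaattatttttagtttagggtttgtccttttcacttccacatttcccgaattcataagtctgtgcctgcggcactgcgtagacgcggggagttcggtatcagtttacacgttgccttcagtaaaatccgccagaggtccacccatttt
CCDC80: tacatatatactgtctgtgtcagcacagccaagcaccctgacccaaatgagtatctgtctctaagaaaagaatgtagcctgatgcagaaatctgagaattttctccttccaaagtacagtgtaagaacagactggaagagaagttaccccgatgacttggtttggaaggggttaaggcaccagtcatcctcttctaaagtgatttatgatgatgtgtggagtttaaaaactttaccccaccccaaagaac

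The AP-1 motif TGANTCA, searched on both strands, was found in 2 of the 9 windows, those of ANKRD1 and F3. It was found in 6.57% of all windows, and in the 2 members it did not overlap GGAATG. The CArG box of serum response factor was found in 0 of the members' windows, against 1.16% of all windows. A match is a run of letters and was not measured as a bound site.

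The 10 genes did not move in 1 direction. CCDC80 was higher with the FZD2 shRNA by at least 2-fold, MYOF was lower by at least 2-fold, and the other 8 lay between. Across 14377 measured genes, those of at least 1 FPKM in at least 1 library, 15.2% were at least 2-fold higher and 7.41% were at least 2-fold lower. The counts of 1 of 10 and 1 of 10 are near those shares. The members' median log2 ratio was -0.30, beside -0.00 over all measured genes. The 8 members without reads shared with other genes had a median of -0.50, beside -0.25 over the 8154 measured genes of that class. Below 0 lay 6 members and above 0 lay 4, while 50.1% and 49.7% of all measured genes did so.

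**Figure D1:**
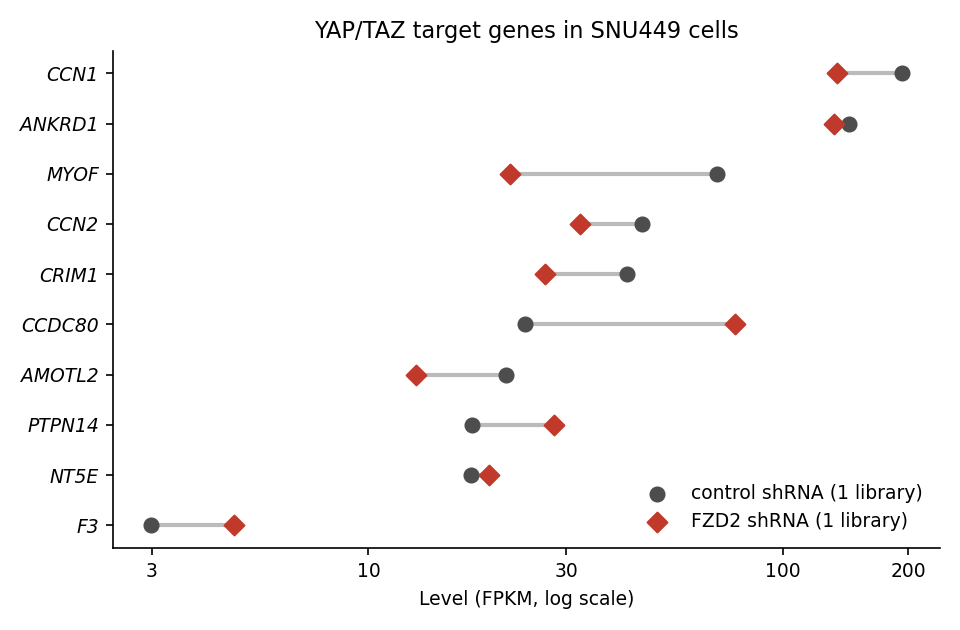
FPKM (log axis) of the 10 YAP/TAZ target genes in the control library (grey circles) and the FZD2 shRNA library (red diamonds), 1 library each. MYOF and CCDC80 have the widest gaps, in opposite directions, and ANKRD1 and NT5E have the narrowest.

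In control cells the targets spanned 2.99 to 193.58 FPKM. CCN1 and ANKRD1 led, followed by MYOF, CCN2, CRIM1, CCDC80, AMOTL2, PTPN14, NT5E and F3. Neighbours whose counting intervals overlapped were CCN2 and CRIM1, CCDC80 and AMOTL2, and PTPN14 and NT5E. In the FZD2 shRNA library, CCN1 and ANKRD1 were again the highest and no longer differed beyond counting error. MYOF went from the 3rd place to the 7th, at a level overlapping that of NT5E, and CCDC80 went from the 6th to the 3rd. The summed level of the 10 genes was 490.61 FPKM with the FZD2 shRNA and 578.00 FPKM with the control shRNA. CCN1 and ANKRD1 made up 54.6% and 58.4% of those sums.

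Among the secreted targets, the CCN genes and CCDC80 lay on opposite sides of 0. CCN1, a matricellular protein that binds integrins and the best known YAP target together with CCN2, was at 135.06 FPKM with the FZD2 shRNA and 193.58 FPKM with the control shRNA. Its log2 ratio was -0.52, and its counts of 2565 and 3776 gave a count log2 ratio of -0.52 (-0.60 to -0.45). CCN2, a matricellular growth factor linked to fibrosis, was at 32.43 and 45.68 FPKM (log2 ratio -0.48), with counts of 633 and 916. Both genes were lower by nearly the same amount, and the level of CCN1 relative to CCN2 was 4.16 with the FZD2 shRNA and 4.24 with the control shRNA. Of the other CCN family members, CCN5 was at 2.25 and 2.41 FPKM, and CCN3, CCN4 and CCN6 were below 1 FPKM in both libraries.

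CCDC80, a secreted protein of the extracellular matrix, went the other way. It was at 76.66 FPKM with the FZD2 shRNA and 23.85 FPKM with the control shRNA, a log2 ratio of 1.64 or 3.13-fold higher on FPKM + 1. Its counts were 2993 and 948, and the count log2 ratio was 1.69 (1.59 to 1.80). Of all measured genes, 94.6% had a lower log2 ratio. Its expected counts were whole in both libraries, which places it among genes without reads shared with other genes, and among the 8154 measured genes without shared reads 4.19% were at least 2-fold higher. Its relative SRPX was at 11.52 and 19.73 FPKM (log2 ratio -0.73). SRPX2, another relative, was at 2.80 and 2.83 FPKM, and its count interval held 0 (-0.60 to 0.56).

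The membrane proteins among the targets held the lowest ratio of the 10. MYOF, myoferlin, a ferlin that acts in the repair and fusion of the plasma membrane, was at 21.89 FPKM with the FZD2 shRNA and 69.38 FPKM with the control shRNA. The log2 ratio was -1.62, or 3.07-fold lower, and counts of 1251 and 4081 gave -1.67 (-1.76 to -1.58). Only 1.1% of measured genes had a lower log2 ratio, while among genes without shared reads 10.2% were at least 2-fold lower. Its relative DYSF was below 1 FPKM in both libraries, and the ferlin pseudogene FER1L4, whose reads were shared with other genes, was at 9.94 and 3.83 FPKM (log2 ratio 1.18, or 0.76 with a pseudocount of 5).

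CRIM1, a transmembrane protein that binds bone morphogenetic proteins (BMPs), was at 26.65 FPKM with the FZD2 shRNA and 41.91 FPKM with the control shRNA, a log2 ratio of -0.63. Its counts were 1253 and 2024, for a count log2 ratio of -0.66 (-0.76 to -0.55). Among 15 genes of the BMP pathway, 11 were measured (median -0.28). Of these, 1 was at least 2-fold higher and 1 lower, beside 15.2% and 7.41% of all measured genes. ACVR1, a type I receptor, was at 3.85 and 14.69 FPKM (-1.69, or -1.15 with a pseudocount of 5), and the ligand gene BMP7 was at 15.64 and 2.83 FPKM (2.12, shared reads). ID1, a transcriptional target of BMP signalling, was at 31.49 and 22.85 FPKM (0.45). The ID genes did not share a direction. ID3 was at 3.62 and 7.24 FPKM (-0.83), and ID2 was at 2.61 and 3.56 FPKM (-0.34), with a count interval that held 0 (-1.18 to 0.26). The antagonist gene NOG was at 21.09 and 16.22 FPKM.

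NT5E, or CD73, the ectonucleotidase that makes adenosine from AMP outside the cell, was at 19.52 FPKM with the FZD2 shRNA and 17.67 FPKM with the control shRNA. Its counts of 642 and 608 gave a count log2 ratio of 0.11 (-0.05 to 0.28), and it was the only member whose interval held 0. The difference in NT5E thus did not exceed counting error on this scaling, and its log2 ratio was 0.64 without the GC trend described below. Of 13 genes of extracellular adenosine, 10 were measured, of which 1 was at least 2-fold higher and 0 were lower. That gene was ADORA2A, a receptor for adenosine, at 41.29 and 15.10 FPKM (log2 ratio 1.39, shared reads). Of all measured genes, 15.2% were higher and 7.41% lower, and 29.7% of those with shared reads were higher. ENTPD1, which supplies AMP by cleaving ATP and ADP, was at 5.40 and 2.90 FPKM (0.71, shared reads), and ADK, the kinase that removes adenosine inside the cell, was at 20.75 and 33.95 FPKM (-0.68).

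F3, tissue factor, the membrane receptor that starts blood clotting, was the lowest of the 10 at 4.73 FPKM with the FZD2 shRNA and 2.99 FPKM with the control shRNA. It rested on 87.43 and 60.95 expected counts, and its count log2 ratio of 0.55 had the widest interval of the members (0.06 to 1.04). The gene length listed for F3 was 2233 bases with the FZD2 shRNA and 2393 bases with the control shRNA, a difference of 160 bases. F3 has a transcript of 6 exons and a listed shorter one of 5 exons, which lacks exon 5 of 160 bases (GENCODE release 29). The shorter form is known as alternatively spliced tissue factor, a soluble protein. Which transcript held the reads cannot be read from so few counts, and reads over single exons were not analysed here.

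Of 9 genes of the tissue factor pathway, 6 were measured. Of these, 1 was at least 2-fold higher and 0 were lower, beside 15.2% and 7.41% of all measured genes. F2R, the thrombin receptor PAR1, was at 25.15 and 8.30 FPKM (log2 ratio 1.49, shared reads). The inhibitors TFPI and TFPI2 were at 58.09 and 54.26 FPKM and at 21.78 and 40.27 FPKM (-0.86), and PROCR, the protein C receptor, at 35.77 and 50.98 FPKM.

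The negative regulators of YAP among the targets differed from each other in direction. AMOTL2, an angiomotin that holds YAP at cell junctions and in the cytoplasm, was at 13.03 FPKM with the FZD2 shRNA and 21.41 FPKM with the control shRNA (log2 ratio -0.68). Its counts were 544 and 919, and the count log2 ratio was -0.72 (-0.88 to -0.57). The other angiomotins were closer to 0, AMOTL1 at 5.14 and 6.86 FPKM (-0.36, or 0.04 without the GC trend described below) and AMOT at 3.03 and 3.32 FPKM (-0.10, or 0.37 without that trend and 0.02 in TPM).

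PTPN14, a tyrosine phosphatase that binds YAP through its PPxY motifs, was at 27.96 FPKM with the FZD2 shRNA and 17.74 FPKM with the control shRNA (log2 ratio 0.63). Its expected counts of 3152.07 and 2054.34 gave a count log2 ratio of 0.65 (0.57 to 0.73), and they were not whole, so a part of its reads was shared with other genes. Genes with shared reads were higher as a class in the FZD2 shRNA library, with a median of 0.48 over 6223 genes, against -0.25 over those without. Of that class, 29.7% were at least 2-fold higher and 3.71% lower. The part of the shared reads in the value of PTPN14 was not tested. The related phosphatases had ratios below 0 under every scaling tried, although PTPN3 and PTPN4 came to -0.09 and -0.08 with the GC trend taken out. PTPN13 was at 3.29 and 9.91 FPKM (-1.35, or -0.85 with a pseudocount of 5 and -0.83 with the GC trend taken out), PTPN21, the closest relative, at 1.54 and 3.05 FPKM (-0.67), PTPN3 at 3.36 and 5.55 FPKM (-0.59) and PTPN4 at 0.55 and 1.35 FPKM (-0.60).

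ANKRD1, an ankyrin repeat protein of the nucleus and of the muscle sarcomere, and one of the most used reporters of YAP activity, was nearly level. It was at 132.68 FPKM with the FZD2 shRNA and 143.79 FPKM with the control shRNA, with counts of 2184 and 2431. Its log2 ratio was -0.12 and its count log2 ratio -0.12 (-0.20 to -0.04), so the difference exceeded counting error but was small. Its sign depended on the scaling, at 0.04 in TPM and 0.39 with the GC trend taken out. The relative ANKRD2 was at 8.26 and 8.10 FPKM.

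**Figure D2:**
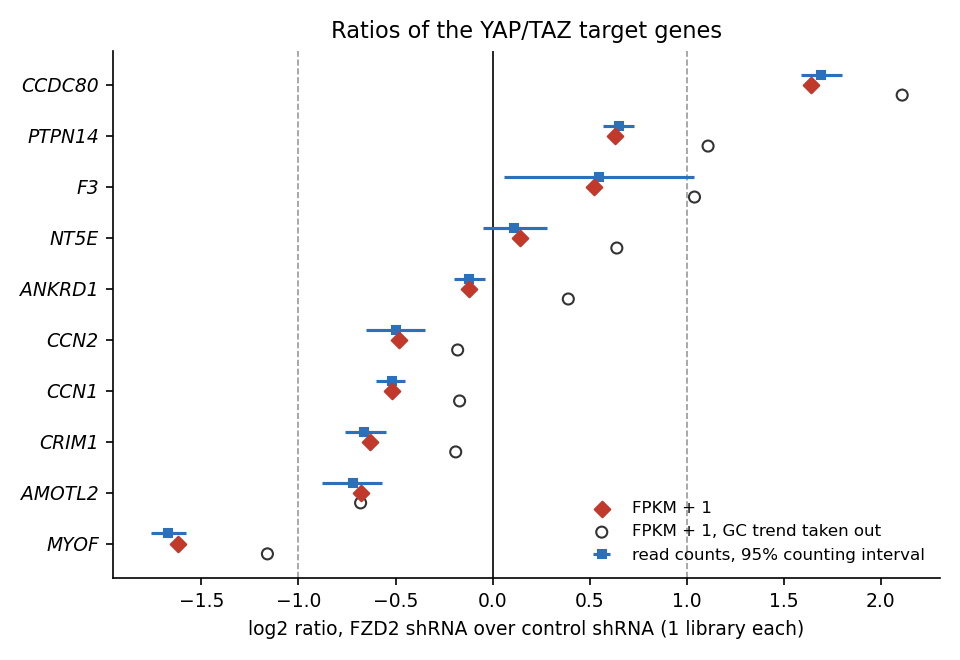
Log2 ratio (FZD2 shRNA over control, 1 library each) of each target gene from FPKM + 1 (red), from read counts with the 95% counting interval (blue), and from FPKM + 1 with the GC trend taken out (open circles). Dashed lines mark 2-fold, and MYOF and CCDC80 lie beyond them in every version, whereas PTPN14 and F3 pass 2-fold in the last version.

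By counting error alone, 6 members were lower, 3 were higher and NT5E was on neither side. These calls are common in this pair of libraries, in which the interval lay below 0 for 36.8% and above 0 for 35.5% of all measured genes. How far cultures of the same group differ was not measured.

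**Figure D3:**
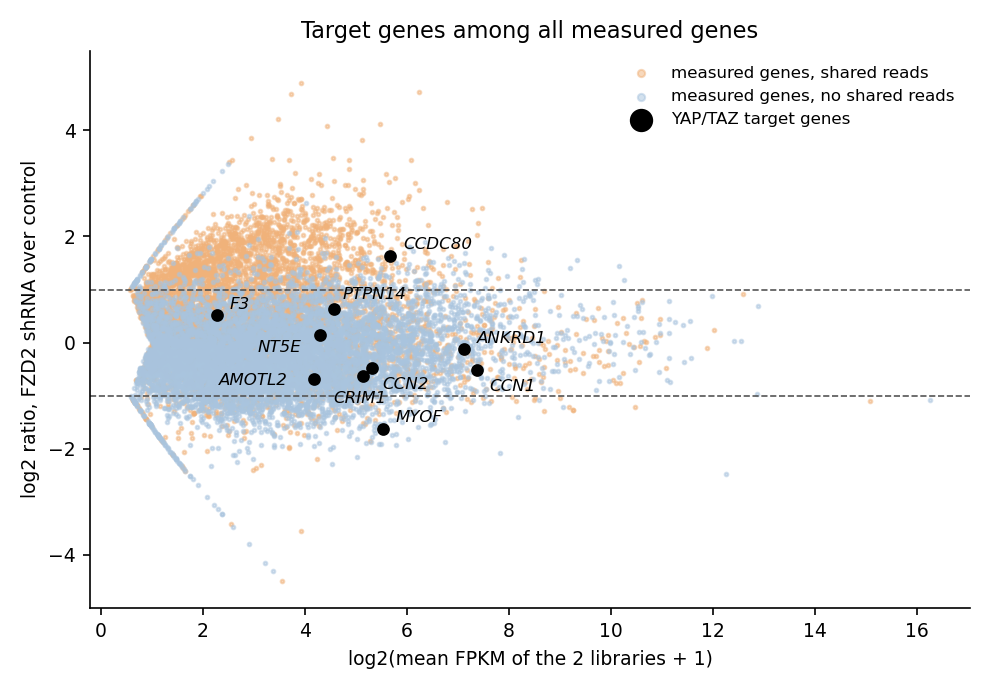
Log2 ratio (FZD2 shRNA over control) against log2 of the mean FPKM + 1 for all measured genes, with shared reads (orange) or without (blue), and the 10 target genes (black). Most target genes lie within the 2-fold lines, among genes without shared reads, and CCDC80 and MYOF lie outside.

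The levels also moved with sequence features of the genes. Among measured genes without shared reads, split into 10 bins by GC content, the bin of lowest GC had a median log2 ratio of -0.54 and that of highest GC 0.24. The target genes had 42.8% to 59.5% GC, where the fitted trend ran from -0.51 to 0.00. With the trend taken out, MYOF was at -1.16 and CCDC80 at 2.11, both still past 2-fold, while CCN1 (-0.17), CCN2 (-0.18) and CRIM1 (-0.19) came closer to 0. NT5E was at 0.64. AMOTL2, which had the highest GC content of the members, kept its value of -0.68. The trend was fitted on genes without shared reads only, and genes with shared reads had a median of 0.48 before it was taken out. PTPN14 (1.11) and F3 (1.04), both with shared reads, passed 2-fold without the trend, so that 3 members were higher and 1 was lower. Over all measured genes with known GC content, 21.4% were at least 2-fold higher and 2.53% lower under that setting, beside 15.2% and 7.41% without it, and the median over all genes was 0.23. The part of GC content and of shared reads in these differences was not tested.

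**Figure D4:**
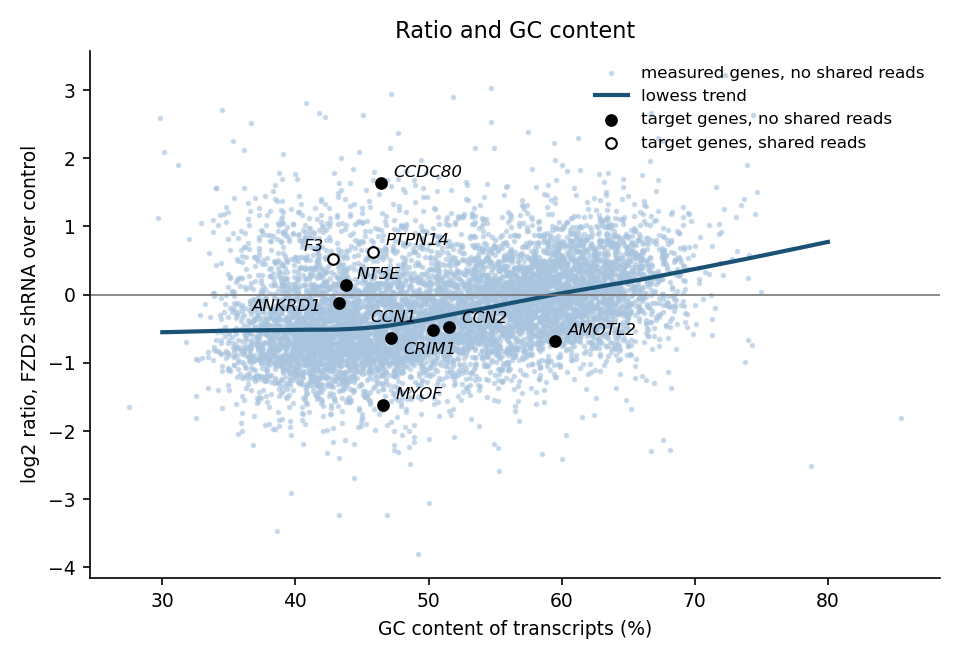
Log2 ratio (FZD2 shRNA over control) against GC content of the transcripts (percent) for measured genes without shared reads (blue), with the lowess trend (line) and the 10 target genes (black, open where reads were shared). CCN1, CCN2 and CRIM1 lie near the trend, AMOTL2 and MYOF below it, and CCDC80 far above it.

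The other genes of the same published target signature were looked at beside the members. Of 12 further signature genes, 11 were measured, and 0 were past 2-fold in either direction on FPKM + 1 (median -0.04). Over all measured genes, 15.2% were at least 2-fold higher and 7.41% lower, so few such genes would be found among 11. GADD45A, a stress response protein, was at 15.98 and 32.75 FPKM (log2 ratio -0.99), with a count log2 ratio of -1.10 (-1.38 to -0.82). LATS2, a Hippo kinase that phosphorylates YAP, was at 1.74 and 4.32 FPKM (-0.96), with a count log2 ratio of -1.31 (-1.70 to -0.93). On counts, both point values were thus past 2-fold lower, while both intervals also held differences short of 2-fold. With counts scaled to CPM and a pseudocount, a slightly different measure, 10.1% of all measured genes were at least 2-fold lower. IGFBP3, a carrier of insulin-like growth factors, was at 87.04 and 85.42 FPKM (0.03). AXL, a receptor tyrosine kinase, was at 86.40 and 57.60 FPKM (0.58, shared reads), and the ligand gene TGFB2 at 69.55 and 71.43 FPKM (-0.04, shared reads). The kinase gene NUAK2 was at 48.68 and 33.47 FPKM (0.53, shared reads).

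Of 13 further YAP/TAZ targets that overlap these lists in part, 11 were measured (median -0.04). Of these, 1 was at least 2-fold lower and 0 were higher, beside 7.41% and 15.2% of all measured genes. The lower gene was THBS1, the matricellular protein thrombospondin 1, at 20.24 and 63.41 FPKM (-1.60) and without shared reads. BIRC5, the apoptosis inhibitor survivin, was at 71.09 and 38.76 FPKM (0.86, shared reads), EDN1, the vasoconstrictor endothelin, at 29.36 and 25.28 FPKM, and AREG, a ligand of the EGF receptor, at 19.35 and 13.12 FPKM (0.53). Of the secreted matrix proteins among the targets, CCN1, CCN2 and THBS1 had ratios below 0 under every scaling tried, and CCDC80 above 0.

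The factors that act on these targets were at varied levels. Of 7 genes for YAP, TAZ, the TEAD factors and VGLL4, 1 was at least 2-fold lower and 0 were higher. Of all measured genes, 7.41% were lower and 15.2% higher, so 1 of 7 is not unusual. The lower gene was WWTR1, at 20.15 FPKM with the FZD2 shRNA and 47.81 FPKM with the control shRNA (-1.21, shared reads). YAP1 was at 7.76 and 9.96 FPKM (-0.32, or 0.08 with the GC trend taken out), TEAD1 at 6.49 and 11.30 FPKM (-0.72, or -0.25) and TEAD4 at 23.04 and 14.98 FPKM (0.59, shared reads). Of 11 Hippo kinase module genes, 0 were past 2-fold on FPKM + 1, beside those same shares of 15.2% higher and 7.41% lower. Above 0 lay 6 and below 0 lay 5, while 49.7% and 50.1% of all measured genes did so. NF2, the upstream regulator merlin, was the highest in level at 78.22 and 40.79 FPKM (0.92, shared reads). LATS1 was at 1.59 and 3.33 FPKM (-0.74, shared reads). On counts, the point values of LATS1 at -1.03 (-1.39 to -0.68) and LATS2 at -1.31 (-1.70 to -0.93) were past 2-fold lower. Both intervals also held differences short of 2-fold. NF2 was at 0.97 (0.89 to 1.05). With counts scaled to CPM and a pseudocount, a slightly different measure, 16.9% of all measured genes were at least 2-fold higher and 10.1% lower. The targeted transcript, FZD2, was at 15.76 and 59.45 FPKM (-1.85, shared reads).

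**Figure D5:**
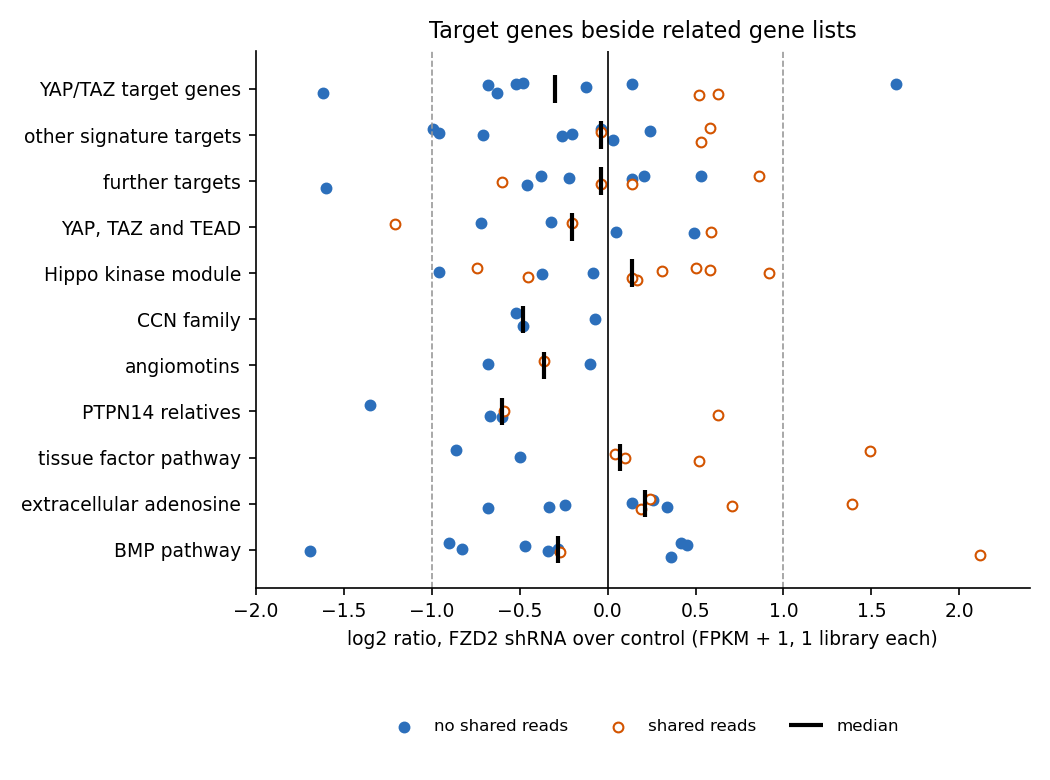
Log2 ratio (FZD2 shRNA over control, FPKM + 1) of each measured gene of the target list and of 10 related lists, with shared reads (open orange) or without (blue), the median of each list (black bar) and 2-fold (dashed lines). The target genes span -1.62 to 1.64 around a median of -0.30, and most related genes lie between the 2-fold lines.

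The libraries held 8234592 (FZD2 shRNA) and 8436870 (control) expected counts, of which the 10 targets took 0.186% and 0.211%. Mitochondrial ribosomal RNA took 3.88% and 8.31%. The label for liver was checked against markers, since the growth protocol names prostate cells. Of 12 hepatocyte markers 3 were measured, all fibrinogen genes, with a summed level of 244.7 and 206.4 FPKM for the list, while ALB was at most 0.05 FPKM and APOB and TTR were unlisted in both libraries. Of 4 hepatobiliary epithelial markers 2 were measured, the keratins KRT8 and KRT18, both with shared reads. They were at 228.95 and 172.66 FPKM and at 401.04 and 320.79 FPKM, while KRT19 and EPCAM were below 1 FPKM in both libraries. Of 7 prostate markers 2 were measured, and KLK2, KLK3, TMPRSS2 and FOLH1 were unlisted. CCDC80 and the CCN genes are also made by fibroblasts and stellate cells, for which 6 of 10 markers were measured. Their summed level was 347.9 and 441.5 FPKM, mostly COL1A2 and COL1A1, and DCN, LUM, PDGFRA and PDGFRB were all below 1 FPKM. Of 5 leukocyte markers 4 were measured, with a summed level of 94.2 and 27.7 FPKM, mostly LYZ (71.47 and 12.31 FPKM, shared reads), while PTPRC was at 1.61 and 1.56 FPKM and CD3E was unlisted. Of 6 endothelial markers PECAM1 alone was measured (2.33 and 0.41 FPKM, shared reads), and the list summed to 2.6 and 0.6 FPKM. The part of other cell types in the targets' values was not tested. In bulk RNA, fewer cells of a type and less RNA per cell cannot be told apart.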

How the data were processed

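Poly(A)-selected RNA of 2 SNU449 libraries was sequenced on a BGISEQ-500, per the labels' protocols and the series design. Bowtie2, HISAT and hg19 are named, per the submitters' processing notes, while no counting program or annotation is given. Each gene has an expected count, the authors' deposited estimate of its reads, and an FPKM, which the authors scaled by length and depth, per the file headers. A gene missing from a file was taken as 0. Symbols came from the RefSeq table (GRCh38.p14).

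The log2 ratio used a pseudocount of 1 FPKM, and its size understates differences of low genes. A call needed a ratio of 2-fold among genes of at least 1 FPKM in 1 library. Count ratios have exact conditional binomial 95% intervals on rounded expected counts scaled to library totals, with reads taken as independent, and PCR copies are not. A count of 3 is 3.64e-05% (FZD2 shRNA) and 3.56e-05% (control) of the total. Reads were called shared where an expected count was not whole within 0.001. GC content is the mean of GENCODE release 29 transcripts matched by RefSeq accession (96.1% of measured genes), with a lowess trend (fraction 0.3, genes without shared reads). TMM factors were from edgeR 4.0.16. Scripts used Python 3.11.15 and were tested on simulated counts.

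The members and gene lists were chosen with earlier results of these data known, and the motifs with the promoters in view. Named genes were FZD2, the members, and from each other list the genes past 2-fold and up to 4 measured genes of highest mean FPKM, with others chosen after their values were seen. Some list genes are not reported here and were left out of the lists' counts. Alternatives were pseudocounts of 0.1 and 5 FPKM, TPM, CPM, a median of 0, TMM, other filters and limits, members without shared reads, and the GC trend.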

Additional observations from a re-analysis of the deposited data

How the results depend on the processing

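Under the 13 alternatives for the counts of members past 2-fold, pseudocounts, TPM, CPM, TMM, centring and filters left 1 higher (CCDC80) and 1 lower (MYOF). The shares of all measured genes moved more. They were 19.9% higher and 12.2% lower with a pseudocount of 0.1 FPKM, 6.55% and 2.09% with 5 FPKM, and 20.3% and 6.35% in TPM. CPM gave 16.9% and 10.1%, and TMM 15.5% and 7.13%. Shares under the other filters were not computed. After removal of the GC trend, 3 members were higher, beside 21.4% of all measured genes with known GC content. The members' median was then 0.11 in place of -0.30, and that of all measured genes 0.23. A 1.5-fold limit gave 2 higher and 3 lower, and a 4-fold limit 0 and 0. The shares of all measured genes past these limits were not computed, so these counts have no background to be read against. A counting interval that excludes 1 gave 3 higher and 6 lower, beside 35.5% and 36.8% of all measured genes. These counts differ from the main ones by the construction of the limits. The median was -0.14 in TPM, where the median of all measured genes was 0.14, -0.48 with a filter of 5 FPKM, which drops F3, and -0.50 over the 8 members without shared reads, where all measured genes of that class had -0.25. Of 70 single-gene values under 7 alternatives, 2 had the opposite sign, both of ANKRD1 (0.04 in TPM and 0.39 with the GC trend taken out). No paired analysis was possible because each group held 1 library. Among the members, depth left the widest counting interval for F3, and the spread between cultures was not measured.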

Other observations

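The length listed for a gene differed between the libraries for some genes near the targets, and there the FPKM ratio and the count ratio were apart. RBMS3, an RNA-binding protein of the target signature, had a listed length of 8234 bases in the FZD2 shRNA library and 6091.85 bases in the control. Its log2 ratio was -0.04 on FPKM + 1 and 0.36 on counts (-0.05 to 0.78). DOCK5, a guanine nucleotide exchange factor, had lengths of 8041.54 and 9550.86 bases, with ratios of -0.26 on FPKM + 1 and -0.56 on counts (-0.77 to -0.35). TFPI had lengths of 3961.82 and 3209.53 bases, with ratios of 0.10 and 0.40 (0.30 to 0.50). Among the 10 target genes, F3 had a length difference of 160 bases. Smaller relative differences were listed for NT5E (3948.19 and 4021.2 bases), CCDC80 (4679.39 and 4638.63), MYOF (6831.86 and 6846.44) and AMOTL2 (5000.12 and 5006.33), and CCN1, CCN2, ANKRD1, CRIM1 and PTPN14 had the same length in both libraries.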
